A study of Macaca mulatta with 7 samples.

Results

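In rhesus macaque sperm, RNA read from the strand opposite to annotated genes (antisense) was compared with RNA of the genes' own strand (sense) inside each of 7 libraries. All 18282 genes of the 18284 in the deposited gene table were compared; RTN3 and ZC3HAV1 were left out by the rule that chose the genes. No comparison between the animal groups was made. The study profiled total RNA of sperm cells in a project on early life stress, with 1 library for each of 7 labelled samples. The 4 libraries labelled Control came from animals of 5.72 to 5.92 years and the 3 labelled Maltreated from animals of 5.67 to 5.78 years. Sperm of both groups passed through a PureSperm 40/80 density gradient, a step that separates sperm from other cells of the ejaculate, and RNA was extracted with TRIzol. The labels give no strain, genotype or batch, and say nothing of pooling.

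Antisense transcripts arise where RNA polymerase copies the strand opposite to a gene, for example when a neighbouring gene of the other orientation runs past its end, when a gene lies in the intron of another, or when a promoter fires in both directions. Mature sperm transcribe very little, so their RNA is mostly a remnant of spermatid transcription, in which many testis transcripts with unusual starts and ends are made. RNA paired from both strands can form double-stranded RNA, which RIG-I-like sensors report through MAVS in somatic cells. A library protocol that marks strand imperfectly also gives a low level of reads on the wrong strand.

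The 7 libraries held 5316383 to 30715268 sense counts and 583353 to 2013313 antisense counts. Antisense made up 6.15% of counts in Maltreated 1 at the lowest, 8.86% at the median and 12.1% in Control 4 at the highest. Protamine genes, which package sperm DNA, were among the 10 genes with the most sense RNA in these libraries (PRM1 and PRM2, below), so defining markers of the labelled cells were present. Levels are given in CPM, which are counts scaled to a library total. For the leukocyte gene list that is the library's sense total, and for levels of single genes below its sense plus antisense total. The summed sense level of the leukocyte gene list was 41.5 to 105 CPM in 5 libraries, 901 CPM in Control 4 and 1307 CPM in Maltreated 3. These 2 libraries stand apart in leukocyte RNA, and its part in the results below was not tested; without Control 4 the count of genes with more antisense than sense RNA, given next as 330, was 346, and without Maltreated 3 it was 286. Gene counts are sums over exon entries, so a read that touches several exons adds to each, and counting error is larger than the totals would give.

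Most genes carried far more sense than antisense RNA. Of 11872 genes with enough counts to test, 8682 (73.1%) had more sense than antisense RNA and 330 (2.78%) had more antisense than sense, by edgeR's quasi-likelihood test with Benjamini-Hochberg adjustment at 0.05. The median log2 ratio of antisense over sense was -5.13. Antisense exceeded sense in 7 of 7 libraries for 180 of the 330 genes, beside 202 of all tested genes (1.7%), and sense exceeded antisense in 7 of 7 libraries for 6250 of the 8682, beside 6328 of all tested genes (53.3%). With each strand scaled to its own total, which compares shares of a strand rather than counts, 949 genes were higher in antisense (all 330 among them) and 3444 in sense. Another 2860 genes passed neither way, and 6410 had too few counts. The 330 genes held 45.7% of all antisense counts. A simulation gave every gene the common dispersion of these counts. It recovered 33 of 50 genes made with a log2 ratio of 6, 9 of 50 at 4, and 0 of 50 at 2. Real genes differ in spread, and NEMF was called at 0.71 (below), so these rates do not hold for each gene. A gene that was not called is not shown to have equal strands.

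**Figure D1:**
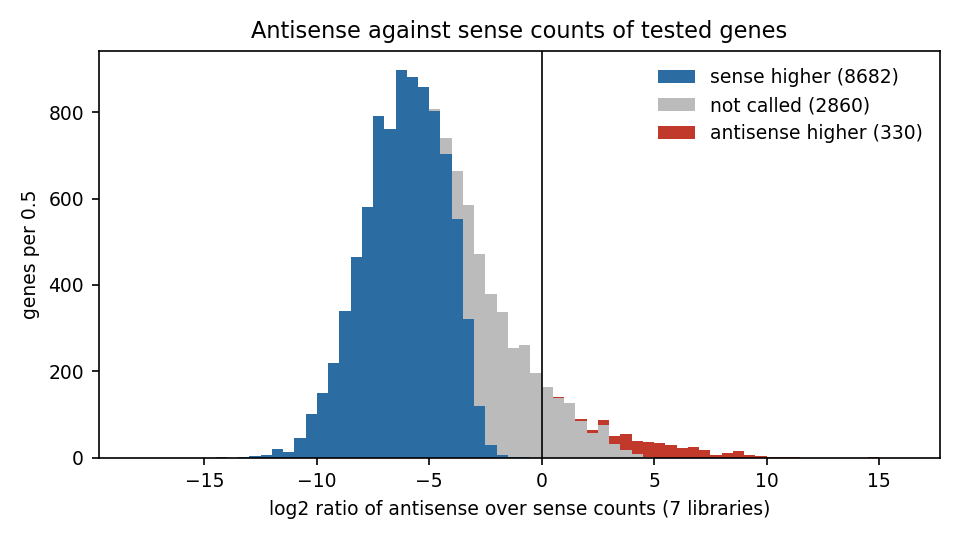
The number of genes (vertical axis) by log2 ratio of antisense over sense counts over 7 libraries (horizontal axis, bins of 0.5), for 11872 tested genes, coloured by call. The 8682 genes with more sense RNA form the bulk left of 0 around the median of -5.13, and the 330 genes with more antisense RNA form the tail to the right.

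The antisense share was next read in genes whose own RNA is very abundant, and how much of it is wrong-strand reads was not tested. Over the 10 genes with the most sense RNA, antisense made up 0.0538% of counts for RPL38, a protein of the large ribosomal subunit, and 2.28% for GON4L, a transcriptional regulator, at the other end. PRM2, a protamine, had a sense count of 155745 at the lowest, 230147 at the median and 2215413 at the highest, and antisense counts of 1793, 4265 and 56283 in the same order. Its antisense share was 1.80% ± 0.684 (SD, n = 7) and its log2 ratio was -5.87 ± 0.29 (SE, adjusted p = 2.85e-21). PRM1, the other protamine, had a mean antisense share of 2.28%, from 1.51% to 3.17% by library. MUC16, a membrane mucin, had 0.608% ± 0.314, and RIMS1, a scaffold of the synaptic active zone, had 0.991% ± 0.111. UBXN7 (0.299%), CEP112 (0.312%), ANKRD36 (0.0772%) and ANKRD36B (0.0681%) were lower still; the files give the last pair overlapping spans that start at the same base of 1 strand, so exons they share are counted for both. The shares of RPL38 and GON4L are of counts summed over the 7 libraries and the others are means over libraries; all 10 genes had more sense than antisense RNA in 7 of 7 libraries.

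**Figure D2:**
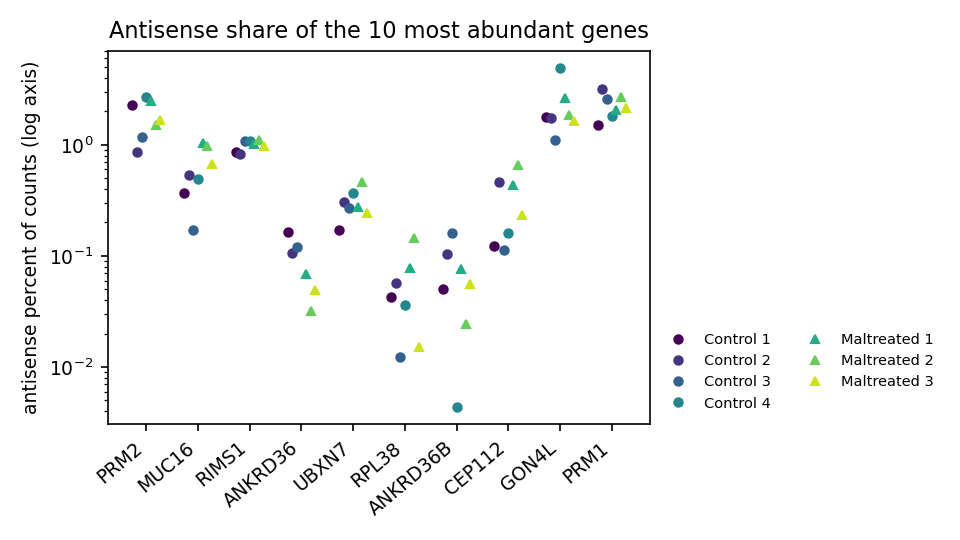
Antisense percent of counts (vertical log axis) of the 10 genes with the most sense RNA, 1 point for each library (circles Control, triangles Maltreated). The mean shares run from 0.0552% for RPL38 to 2.28% for PRM1, and ANKRD36 in Control 4 had a count of 0 and no point.

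The antisense counts of PRM2 and PRM1 were not spread evenly along them, nor were those of RPL13 and FIP1L1, which are not among those most abundant genes. The last exon of PRM2 (chromosome 16, 11284766 to 11285065) had 10.3% antisense and the first exon had 0.204%, with 75781 and 6195 antisense counts. PRM1 went the other way: its first exon had 2.79% antisense and carried 93.7% of its antisense counts. RPL13, another ribosomal protein gene, had 46.1% antisense on its first exon (14075 antisense against 16438 sense counts), with no gene of the other strand within 5 kb. FIP1L1, a polyadenylation factor subunit, had 46.0% on exon 11 (chromosome 4, 81329799 to 81329905) and 41.1% on exon 12, and these 2 exons held 43.2% and 49.4% of its antisense counts. Its sense count nevertheless stayed above antisense in 7 of 7 libraries (log2 ratio -1.64 ± 0.38, adjusted p = 0.0002). Coordinates are those of the deposited exon files, which name no genome build.

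Where antisense RNA exceeded sense RNA, the antisense reads took 3 shapes, which were defined after the values were seen and are given without a test. In 71 of the 330 genes, at least 50% of antisense counts lay on exons that were level with both neighbouring exons to within 2%. These 71 flat genes held 73.8% of the antisense counts of the 330. In 50 genes the antisense reads covered under 10% of the exon bases, and 209 genes were neither. Over all 11872 tested genes 509 were flat, 9016 narrow and 2153 neither, the rest having no antisense count, so the narrow rule was met by most genes and was not particular to the 330. Genes with few antisense reads can meet that rule whatever the form of their antisense RNA. Flat exons carried 39.0% to 61.2% of antisense counts by library and 1.74% to 4.81% of sense counts.

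**Figure D3:**
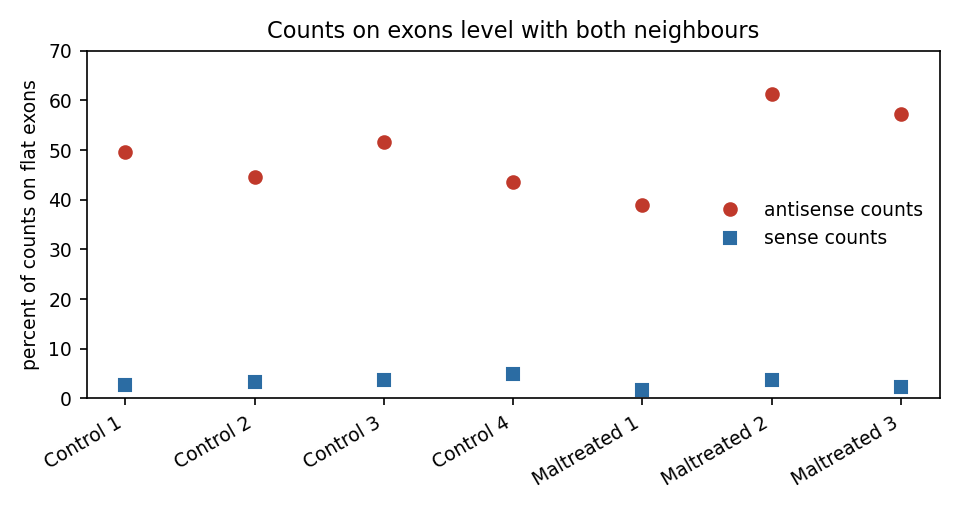
Percent of counts (vertical axis) on exons within 2% of both neighbouring exons and at least 10 counts, for antisense (circles) and sense (squares) counts in each of 7 libraries (horizontal axis). The antisense share is 39.0% to 61.2% and the sense share 1.74% to 4.81%, so the 2 do not overlap.

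The flat stretch with the most antisense counts spans 83 exons on chromosome 14 (111420536 to 111689040), from LRR1 through RPL36AL, MGAT2, DNAAF2, POLE2, KLHDC1 and KLHDC2 to NEMF. Within it, plus-strand reads had a median of 2539 per exon in Control 1 and stayed within 10% of that on 96.4% of exons; minus-strand reads had a median of 1288 and stayed within 10% on 100% of exons. In Maltreated 1, the library with the most counts, the medians were 5614 and 3257. The same counts were therefore sense for plus-strand genes and antisense for minus-strand genes. NEMF, a component of the ribosome quality control pathway, had antisense counts of 41885 at the lowest, 57470 at the median and 184359 at the highest, against sense counts of 26481, 35898 and 109300. Antisense was above sense in 7 of 7 libraries, by a log2 ratio of 0.71 ± 0.29 (adjusted p = 0.0242). POLE2, a subunit of DNA polymerase epsilon, had a log2 ratio of 0.78 ± 0.34 (adjusted p = 0.0351) and antisense above sense in 7 of 7. The call was lost for NEMF without Control 1 or Maltreated 3 (log2 ratios 0.67 and 0.68), and for POLE2 without any 1 library other than Control 4 (0.74 to 0.78). The plus-strand genes were the mirror image, with an antisense share of 34.6% ± 3.07 for KLHDC1 and 37.1% ± 3.12 for KLHDC2, subunits of ubiquitin ligases. LRR1, another ubiquitin ligase subunit, was not called (log2 ratio -0.87 ± 0.50, adjusted p = 0.107). The 8 genes of the stretch held 18.5% of all antisense counts.

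**Figure D4:**
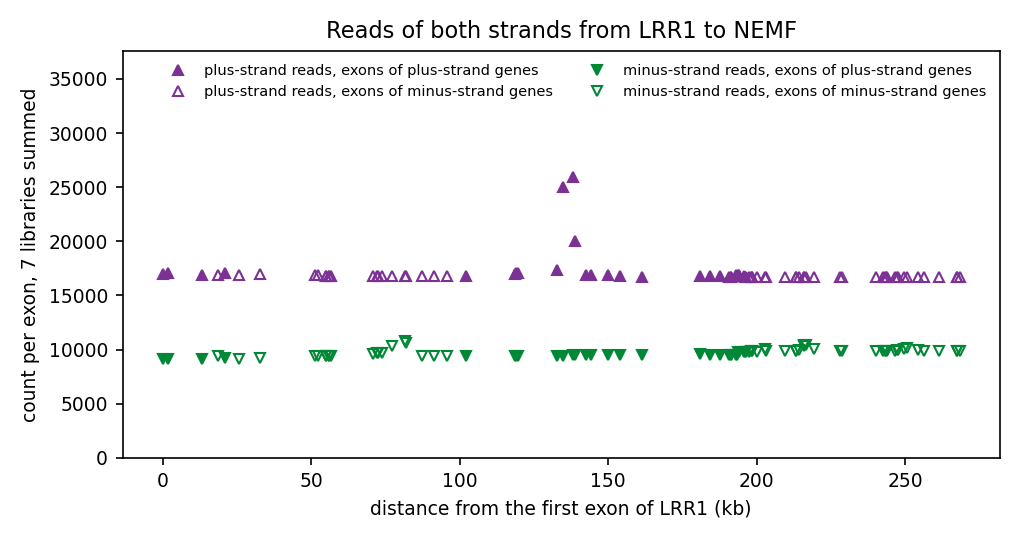
Counts per exon summed over 7 libraries (vertical axis) against distance from the first exon of LRR1 (horizontal axis, kb), for plus-strand reads (upward triangles) and minus-strand reads (downward triangles). Filled symbols are exons of plus-strand genes and open symbols exons of minus-strand genes; nearly all 83 exons lie on 2 level lines, whichever strand their gene is on.

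Other flat stretches lay on several chromosomes, and some differed more between libraries: the antisense level was 7340 ± 899 CPM for NEMF, 3773 ± 3272 CPM for USPL1 and 4088 ± 5570 CPM for PIK3R5 (SD, n = 7). On chromosome 13, USPL1, a SUMO protease, and ALOX5AP, which activates leukotriene synthesis, had antisense counts in 14 consecutive exons with a median of 28586 per exon over the 7 libraries. USPL1 had antisense counts of 2295 in Control 4, 24149 at the median and 110746 in Maltreated 3, against sense counts of 1, 56 and 400 at the lowest, median and highest. Its log2 ratio was 8.97 ± 0.63 (adjusted p = 1.01e-15). ALOX5AP had 1280 to 61829 antisense counts and a sense count above 0 in 1 library only (28 in Maltreated 3), with a log2 ratio of 14.79 ± 0.92. PIK3R5, a regulatory subunit of PI3-kinase, had 3796 antisense counts in Control 2 and 99645 in Maltreated 2, and a median of 11954, against a sense median of 11. DGKH, a diacylglycerol kinase, had 2430 to 12889 antisense counts and a log2 ratio of 4.88 ± 0.69. SUMF2, which ends 360 bases from PHKG1 on the other strand, had 2226 to 18029 antisense counts and a log2 ratio of 5.15 ± 0.70.

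RANBP3, a nuclear export cofactor with an exon that overlaps CAPS on the other strand, had 3753 to 32141 antisense counts and a log2 ratio of 5.28 ± 0.57. ATP13A1, an endoplasmic reticulum ATPase, had a log2 ratio of 5.43 ± 0.74. C19orf6 had antisense RNA at 84.8% ± 8.87 of its counts. At the stretch from GYG1, which starts glycogen chains, to the carboxypeptidases CPA3 and CPB1 on chromosome 3, the median exon count was 2698 in Maltreated 3, 14 in Control 1, and 0 or 1 in the other 5 libraries. CPA3 had 29678 antisense counts in Maltreated 3 and 0 to 154 in the others, with no sense count in any library, and entered no test because only Maltreated 3, Control 1 and Control 2 reached 10 counts. GYG1 was not called (log2 ratio 2.06 ± 1.23, adjusted p = 0.122). When the count of the lower neighbouring exon of the same gene was subtracted from each exon, 226 genes had more antisense RNA, 170 of them among the 330. The subtraction takes nearly all counts from level exons by construction. In flat genes the ratio is therefore of the small counts left, and a negative ratio does not show more sense RNA of the gene. The log2 ratio of the counts left was negative for NEMF (-3.70), POLE2 (-2.68), USPL1 (-4.16), SUMF2 (-4.16), DGKH (-7.00), ATP13A1 (-3.01), LONP1 (-2.13) and C19orf6 (-4.45), and the call was lost for RANBP3 (1.33, adjusted p = 0.127) and KCTD20 (0.42, adjusted p = 0.739). With the lower neighbour taken in genome order instead, USPL1 and SUMF2 kept more antisense RNA (5.83 and 4.55), NEMF and DGKH were positive but not called (0.48 and 1.37), and RANBP3 and KCTD20 were again not called (1.29 and 0.36). All 599 flat runs of 3 or more exons held 50.7% of antisense and 3.94% of sense counts, and 149 of them spanned 2 or more genes.

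**Figure D5:**
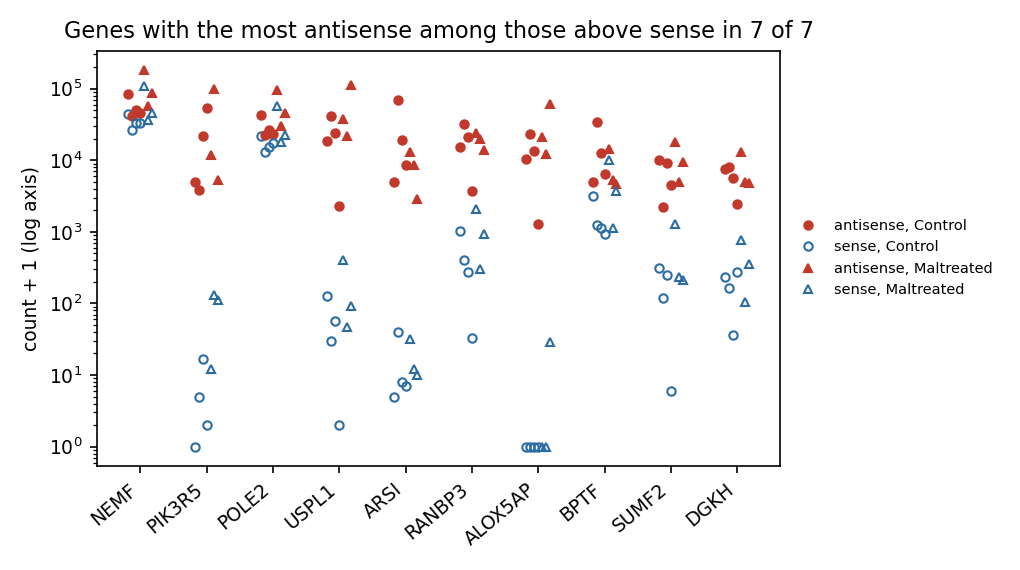
Counts plus 1 (vertical log axis) of antisense (filled) and sense (open) RNA in each of 7 libraries (circles Control, triangles Maltreated) for the 10 genes with the highest mean antisense level among those with antisense above sense in 7 of 7 libraries. NEMF and POLE2 have high sense counts too, while antisense and sense counts of the other 8 genes lie farther apart in most libraries.

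Among narrow genes, some had a stack of reads on 1 exon. ARSI, an arylsulfatase gene, had antisense counts of 2867 at the lowest, 8660 at the median and 69062 in Control 2, against sense counts of 4, 9 and 39. Almost all (126194 counts, beside 105 sense) lay on its first exon (chromosome 5, 148173665 to 148174557), where a median of 88 of 893 bases was covered. Its log2 ratio was 9.93 ± 0.64 (adjusted p = 8.18e-17). BPTF, the largest subunit of a chromatin remodeller, had 4708 to 34016 antisense counts with 99.4% on its first exon when repeated exon entries are counted once. Its log2 ratio was 2.07 ± 0.57. CACNA1E, a calcium channel subunit, had 4860 antisense counts on a last exon of 8826 bases, of which a median of 31 bases was covered. It was called (log2 ratio 1.76 ± 0.66, adjusted p = 0.0159), and without Control 2 the call was lost (1.62). MYOT, a sarcomere protein, fell outside this shape, with 16.0% of its exon bases covered, but also had 1 dominant exon: it had 11302 antisense and 55 sense counts on exon 7 (chromosome 5, 135377385 to 135377591), which was covered in full. Its antisense counts were 1317 to 2140, and its level was 194 ± 82.6 CPM (SD, n = 7).

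The remaining genes had no flat or narrow form, and several of its members had no sense RNA to speak of. F2RL1, a protease-activated receptor, had 6 to 514 antisense counts and no sense count in any library, which puts antisense at least 536-fold higher than the limit of 3 counts over the 7 libraries. TAS2R30 and TAS2R46, bitter taste receptors, showed the same 47 to 338 antisense counts; the files place both on the same bases of chromosome 12, so the same reads are counted under both names. TNFRSF17, the receptor BCMA of plasma cells, had 585 to 4475 antisense counts and a median of 2 sense counts (log2 ratio 9.52 ± 1.03). SLC2A2, a glucose transporter, and PAX8, a transcription factor, differed in being mostly flat, with log2 ratios of 9.56 ± 1.34 and 11.14 ± 1.36. PPP1R3D, a glycogen targeting subunit whose start lies 181 bases from that of FAM217B, had 527 to 5424 antisense counts (log2 ratio 9.06 ± 1.11).

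Genes were sorted by what lies on the other strand: an overlapping exon (930 genes), a position inside the span of an opposite-strand gene (244), an opposite gene within 5 kb facing tail to tail (2701) or head to head (1639), or none (12768). Per library, antisense made up 11.1% ± 3.27 of the counts of exon-overlapping genes, 10.2% ± 2.29 of genes inside another, 12.1% ± 2.51 of tail-to-tail genes, 7.10% ± 1.78 of head-to-head genes and 8.25% ± 2.17 of the others (SD, n = 7). Against genes with none, the differences were 2.89, 2.00, 3.89 and -1.15 points, with adjusted p of 0.0625, 0.0938, 0.0625 and 0.0833 by exact two-sided sign-flip tests over libraries, and none passed 0.05. The smallest p that 7 pairs allow is 0.0156 before adjustment. With repeated exon entries counted once, the exon-overlap difference was 0.54 points (exact p = 0.266) and that of genes inside another 3.98. The tail-to-tail difference was -0.35 points without the 8 genes of the chromosome 14 stretch. Of tested genes, the share called with more antisense was 2.88%, 11.9%, 2.64%, 1.48% and 2.86% in the same order, beside 2.78% over all; the high share inside other genes is 16 of 134, and it was not tested.

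Exons that an exon of the other strand overlaps had a higher antisense share of their counts than the rest, but were few. These 1130 exons, 0.593% of 190578, had an antisense share of 24.5% to 36.9% by library, beside 6.37% to 12.3% on the other exons, and they held 0.962% of all antisense counts. On such an exon a read in the shared bases is counted for both genes, and is sense for one gene and antisense for the other. In 63 of the 118 overlapped exons with at least 70 antisense counts, the partner's sense count was at or above the antisense count. The KCTD20 exon shared with PXT1, a testis gene, had 1319 antisense counts and PXT1's exon had 1319 sense counts. Both lay in a flat run of 8 exons of these genes with a median of 1315.5 counts. The equal counts therefore do not show that reads in the shared bases were counted for both. KCTD20 was called with more antisense (log2 ratio 8.20 ± 1.09) and PXT1 with more sense RNA (-7.66 ± 1.10), and antisense counts on KCTD20 were flat for 72.9% of the total.

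Antisense RNA of a gene inside another's span is on the host's strand by definition, so its level was set beside the host's exons. Among the 244, 160 had host exons on both sides and 28 of these had 70 or more antisense counts per exon; in 23 of the 28 the antisense count was at or below the mean sense count of the host exons on either side, with a median of 35.1% of it over the 28. The 28 were kept for their antisense counts, so their number is a description. The other 5 were above the host in counts summed over the 7 libraries: OXCT2 in BMP8B, SMIM6, FAM218A, IFITM2 and MTRNR2L3, which were named after their values were seen. By library, IFITM2 was at or below its host in 6 of 7. SMIM6, FAM218A and MTRNR2L3 were so in 2 each, and OXCT2 in 0. B3GALT2, a galactosyltransferase in an intron of CDC73, had 442 to 7113 antisense counts and 2 to 72 sense counts (log2 ratio 7.22 ± 0.99, adjusted p = 5.25e-08), with 6756 counts per exon beside 11541 and 12319 sense counts of CDC73 on either side. Its 2 exons differed by 0.384%. GPX8, a peroxidase in CDC20B, ANGPTL2, an angiopoietin-like protein in RALGPS1, and HTR2B, a serotonin receptor in PSMD1, stood at 28.5%, 22.9% and 24.7% of the mean of their hosts' flanking exons. Those flanking exons differed widely. GPX8 had 481 counts per exon beside 3173 and 199, ANGPTL2 260 beside 1664 and 602, and HTR2B 220.5 beside 237 and 1547. NNAT, an imprinted gene in BLCAP, stood at 81.0% of its host's mean, with antisense above sense in 6 of 7 libraries. DNAJB7, a testis chaperone in XPNPEP3, had a log2 ratio of 3.06 ± 1.28 (adjusted p = 0.029) and was no longer called without Control 2 or Maltreated 2 (2.70 and 2.43). COL25A1, inside the annotated span of OSTC, had more sense RNA (log2 ratio -5.96 ± 0.83).

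First and last exons were compared next. In tail-to-tail genes the last exons had 28.2% ± 4.70 antisense and the first exons 19.3% ± 2.69, a difference of 8.96 points present in 7 of 7 libraries (exact sign-flip adjusted p = 0.0469 over 3 classes). Head-to-head genes had 17.9% and 16.0% (adjusted p = 0.0938), and genes with no close neighbour 18.9% and 11.8% (adjusted p = 0.0703). The differences between these classes were not tested. The tail-to-tail call held with neighbours within 1 kb (7.02 points) and without the chromosome 14 genes (7.04). The difference was 2.39 points with a neighbour within 20 kb and 0.82 points (adjusted p = 0.469, exact) by medians over genes, neither called, and the call was lost without any 1 library but Control 2. With a library left out, the smallest possible p does not pass after adjustment over 3 classes unless another class reaches it too. That loss therefore follows from the number of pairs and does not show dependence on any 1 library.

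The antisense share of a library was set beside its depth. The sense total is also part of the denominator of the share, so a negative relation is partly built in. The permutation p-values do not allow for that. Over the 7 libraries, Pearson's r with log10 of the sense total was -0.82 (exact permutation p = 0.0141, adjusted 0.0282) and Spearman's rho was -0.93 (exact p = 0.00675, adjusted 0.0135). Without Maltreated 1 and Maltreated 3, the libraries farthest from the median depth, r was -0.89. Against the leukocyte level r was 0.34 (exact p = 0.479, adjusted 0.479) and rho 0.39 (exact p = 0.396, adjusted 0.396); without Control 4 and Maltreated 3 r was 0.40. The labels give no batch, so no within-batch value can be given. With the flat level removed from every exon, r with depth was -0.55, and without the 8 genes of chromosome 14 it was -0.79 with an adjusted p of 0.05, so the relation was then not called.

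Antisense RNA reached at least 10 counts in each of 7 libraries for 646 genes (3.53% of all). Of these, 170 were called with more antisense and 318 with more sense RNA. Sperm and spermatid structure genes held 8 such members of 41, axoneme and motility genes 2 of 37, and cytosolic ribosomal protein genes 9 of 84.

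The gene lists are read against all tested genes, of which 73.1% had more sense and 2.78% more antisense RNA. Of 39 tested sperm and spermatid structure genes, 36 had more sense RNA, 2 were not called and 1, the spermatid kinase TSSK1B, had more antisense RNA; the median log2 ratio was -6.93, beside -5.13 over all tested genes. TSSK1B had 167 to 2140 antisense and 5 to 177 sense counts on its single exon (log2 ratio 4.86 ± 1.01). Of 36 axoneme and motility genes 34 had more sense RNA (median -6.76), above the share over all genes; the difference was not tested. CATSPER2, a sperm calcium channel protein, had an antisense share of 2.70% ± 0.838, and CATSPERD, an auxiliary subunit of that channel which starts 509 bases from LONP1, had 3.94% ± 1.21. LONP1, a mitochondrial protease, had 78.5% ± 3.30. HSD11B1L, a short-chain dehydrogenase, had 29.0% ± 13.4 and a sense excess called at a log2 ratio of -1.40 ± 0.55. It was not called without Control 1, Control 2 or Maltreated 3 (-1.30, -1.22 and -1.28). Its log2 ratio turned to antisense when the lower neighbouring exon was subtracted (closing section).

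Germ cells of earlier stages gave 21 of 25 tested genes with more sense RNA (median -6.27, beside 73.1% and -5.13 over all tested genes). TEX14, which holds intercellular bridges together, had an antisense share of 9.23% ± 5.65. SYCP2, of the synaptonemal complex, had 27.5% ± 34.8 and was not called. Of 27 tested genes of double-stranded RNA sensing and silencing, 20 had more sense RNA and 7 were not called (median -5.86), near the 73.1% over all tested genes. MAVS, which relays RNA sensor signals, had 22 to 176 antisense and 0 to 122 sense counts, with antisense above sense in 7 of 7 libraries but no call (log2 ratio 2.57 ± 1.43, adjusted p = 0.0983). MOV10L1, a helicase of the piRNA pathway, had more sense RNA (-4.25 ± 0.88).

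Ribosomal protein genes gave 74 of 82 with more sense RNA and 8 not called, with a median of -5.89, beside 73.1% and -5.13 over all tested genes; that share also stands beside the imprinted, leukocyte and testis somatic counts that follow. RPL28 had an antisense share of 4.21% ± 2.27. Imprinted genes gave 14 of 17 with more sense RNA and NNAT with more antisense; ZIM2, an imprinted zinc finger gene, had 2.19% ± 0.492 antisense. Leukocyte genes gave 10 of 16 with more sense RNA (median -4.04); ITGAM, an integrin of myeloid cells, was called sense (-4.22 ± 1.73, adjusted p = 0.0261), and that call was lost without Control 1, Control 3, Control 4 or Maltreated 2. MS4A1, the B cell antigen CD20, had 5 to 376 antisense and 0 to 3 sense counts (7.87 ± 1.58). Of 7 tested epithelial and gland genes, SPINK13 had more antisense (0 to 50 counts, no sense count) and 2 had more sense RNA (median 0.29). KLK2, a prostate protease, was not called (0.92 ± 1.74), and KRT18, a keratin, was not tested. Testis somatic genes gave 6 of 7 with more sense RNA, COL1A1 among them (-4.11 ± 1.42), and CYP17A1, a steroid enzyme, with more antisense (8.71 ± 1.54), its 8 exons holding 354 or 355 antisense counts each.

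Pairs of genes known to overlap, or to share a promoter, were listed too. Over all tested genes 73.1% had more sense and 2.78% more antisense RNA. Of 10 genes in overlapping pairs 7 were tested; 4 had more sense RNA and 3 were not called. THRA and NR1D1, nuclear receptors, were not called. ERCC1, a DNA repair nuclease subunit, had more sense RNA (-7.99 ± 1.47), while FGF2, NUDT6 and CD3EAP were not tested; ERCC1 and CD3EAP do not overlap in these files, where they lie 2871 bases apart. Of 12 genes in pairs with a shared promoter 7 were tested, and 5 had more sense RNA, near the share over all tested genes. Among them were ATM (-5.23), NPAT (-7.20), HSPE1 (-5.83) and PAICS (-5.50). All 36 antisense counts of PAICS were in Maltreated 3, beside 32 sense counts there. HSPD1 and COL4A1 were not called, and COL4A2, SURF1, SURF2 and PPAT were not tested.

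Copies of the humanin-like MTRNR2L family, nuclear relatives of a mitochondrial ribosomal RNA, were called in both directions. Of 9 genes, MTRNR2L6 and MTRNR2L10 had more antisense RNA (log2 ratios 6.71 ± 1.16 and 5.22 ± 0.82, antisense above sense in 7 of 7 libraries). MTRNR2L1, MTRNR2L2, MTRNR2L3, MTRNR2L4, MTRNR2L5, MTRNR2L7 and MTRNR2L8 had more sense RNA (-3.29 to -7.11). Over all tested genes 73.1% had more sense RNA, near the 7 of 9 here, and 2.78% had more antisense RNA. The copies are near-identical, so reads may be placed on any of them; the family was chosen after its values were seen.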

How the data were processed

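Whole-number counts and covered fractions of exon length were deposited by the authors, per the file headers and values, for sense and antisense reads of 18284 genes and for exons on each strand. The submitters' processing notes name STAR, featureCounts and bedtools; the genome build, strand protocol and whether a read gapped over an exon counts for it are not given in the sources used here. Gene counts equal the sum of their exon counts. No reference sequence of the build was used here.

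Sense and antisense counts of 18282 genes formed 14 columns. edgeR 4.0.16 (R 4.3.3) fitted library plus strand with the library's sense plus antisense total as offset for both strands, so the coefficient is the log2 ratio of antisense over sense. Genes entered with at least 10 counts over both strands in at least 4 libraries; the threshold was an adjusted p of 0.05. The replicate is the library; p-values measure the spread between these samples, whose origin beyond the titles is not given. Exact sign-flip and pairing permutation tests were two-sided. Neighbours and exon overlaps came from the exon files. DESeq2 1.42.0 and limma 3.58.1 were run as alternatives; the closing section gives the effect of these and other settings.

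The test was checked on simulated data with the common dispersion of these counts. Log2 ratios of 1 and 2 were tried first and not recovered; in the form kept, 0 of 50 genes were recovered at each size and sign, with the ratio of 2 estimated at a median of 1.27. Larger ratios were added after that: 33 and 28 of 50 were recovered at 6 and -6, 9 and 6 of 50 at 4 and -4, with 1 false call among 11872 genes.

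Genes named in the text follow a rule: of genes called with more antisense in 7 of 7 libraries the 10 highest by level and the 10 largest by ratio with a mean of at least 50 counts; the 10 highest by antisense and by sense level; 3 per neighbour class; 2 per gene list plus called members; and known pairs. It names 76 genes, of which some are not reported here; 25 others were chosen after their values were seen. The members and lists were chosen with earlier results of these data known. Flat runs, shapes, nested genes and the excess over neighbouring exons in genome order were chosen after seeing the data, as was leaving out the 8 genes of chromosome 14.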

Additional observations from a re-analysis of the deposited data

Results flagged for a closer look

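Among 84 sets of 7 library values, 26 had a highest library far from the others by Dixon's criterion. Chance flags about 1 in 20 if the values are normal, which levels at or near 0 are not. The 84 are library, class and end measures and the antisense levels of 70 genes named by the rule. Some flags rest on few antisense counts: SURF1 had 1, CD3EAP 3 and NUDT6 4 in Control 4, and PPAT had 2 in Control 3. Control 4 had 4243 genes with more antisense than sense counts, where the others had 2114 to 2935. The antisense share of last exons of head-to-head genes was 27.1% in Control 4 (others 12.8% to 18.8%), and that of first exons of genes with no close neighbour was 25.004% in Control 2 (others 4.35% to 12.6%). ARSI and BPTF have no close neighbour and had nearly all their antisense counts on the first exon. Their flags in Control 2, given next, therefore share counts with that first-exon flag. In Control 2 the antisense level stood apart for ARSI at 11192 CPM (others 246 to 2871), BPTF at 5512 CPM (others 403 to 1929). In Control 3 the antisense level stood apart for PAX8 at 192 CPM (others 39.2 to 96.1), C19orf6 at 577 CPM (others 105 to 279), PPAT at 0.304 CPM (others 0 to 0.0946). In Control 4 the antisense level stood apart for GON4L at 400.3 CPM (others 76.1 to 161), TSSK1B at 146 CPM (others 24.5 to 65.4), SYCP2 at 113 CPM (others 0 to 45.7), NUDT6 at 0.661 CPM (others 0 to 0.147). The same library stood apart for CD3EAP at 0.496 CPM (others 0 to 0.189), HSPD1 at 6.11 CPM (others 0 to 1.04), COL4A1 at 6.45 CPM (others 0.147 to 2.65). The same library stood apart for COL4A2 at 1.98 CPM (others 0 to 0.0856), SURF1 at 0.165 CPM (others 0 to 0), KRT18 at 13.2 CPM (others 0 to 1.06). In Maltreated 1 the antisense level stood apart for PRM2 at 1720 CPM (others 291 to 836), RPL13 at 395 CPM (others 61 to 129). In Maltreated 2 the antisense level stood apart for CYP17A1 at 212 CPM (others 0 to 77.9), CATSPER2 at 183 CPM (others 71.1 to 109), MOV10L1 at 57.6 CPM (others 1.21 to 16), THRA at 128.3 CPM (others 0 to 26.9). The same library stood apart for KLK2 at 11 CPM (others 0 to 3.31). In Maltreated 3 the antisense level stood apart for PAICS at 3.08 CPM (others 0 to 0). Control 4 also had 901 CPM of leukocyte sense RNA (scaled to the sense total), and its part in these values was not tested.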

How the results depend on the processing

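Scaling each strand to its own total gave 949 genes with more antisense and 3444 with more sense RNA, and TMM factors gave 1019 and 2971; they move the median log2 ratio from -5.13 to -1.87 and -1.62 and compare shares of each strand rather than counts. filterByExpr gave 196 and a minimum of 50 counts 211 genes with more antisense. Genes with antisense in every library numbered 1154 at 3 counts, 236 at 50, 395 above the lower neighbouring exon of the gene and 426 above that in genome order (the last chosen after seeing the data). The fit without the pairing by library gave 347 and 7957 genes.

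Class differences from genes with none were 3.21 (exon overlap), 13.7 (tail to tail) and -1.55 (head to head) points with neighbours within 1 kb, all called. Medians over genes gave 2.41, 4.22 (inside) and 1.16 (tail to tail), called. They reversed above the genome-order neighbour (-0.48, -0.21 inside, -0.57 tail to tail), with overlaps of at least 50 bases (-0.88, inside), without the chromosome 14 genes (-0.35, tail to tail) and with neighbours within 20 kb (1.55, head to head). The last minus first exon difference of tail-to-tail genes was 2.39 within 20 kb and 0.82 by medians, no longer called; within 1 kb head-to-head genes had 3.26 and others 7.07, called. The depth relation was -0.55 and -0.79, not called. The cause was not tested.

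Removing the lower neighbouring exon of the gene turned the log2 ratio of NEMF to -3.70, POLE2 to -2.68, USPL1 to -4.16, SUMF2 to -4.16, DGKH to -7.00, ATP13A1 to -3.01, LONP1 to -2.13, HSD11B1L to 2.63, C19orf6 to -4.45 and GYG1 to -0.18; in genome order POLE2 was -2.84, ATP13A1 -3.01, LONP1 -2.14, HSD11B1L 1.97 and C19orf6 -0.15. On level exons these subtractions leave few counts by construction, so the values are ratios of the remainder. KLK2 (0.92 in full, not called) ranged from -0.0097 without Maltreated 2 to 1.94 without Maltreated 3.

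Leaving out each library gave 263 to 346 and 7760 to 8696 called genes, 646 to 908 with antisense in every library, class differences of 2.42 to 3.39 (exon overlap), 1.29 to 2.66 (inside), 3.52 to 4.62 (tail to tail) and -1.45 to -0.88 (head to head), and end differences of 8.42 to 9.93 (tail to tail), 1.21 to 2.66 (head to head) and 5.92 to 9.40 (none). The tail-to-tail end call was lost without any 1 library but Control 2. The 6 pairs left allow no p under 0.0312 before adjustment over 3 classes. That p passes only where another class reaches it too, so the loss follows from the number of pairs.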
